A study of Mus musculus with 6 samples.

Results

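The boundary between midbrain and hindbrain is set in the early neural plate where the domain of Otx2, a homeodomain factor of the forebrain and midbrain, meets that of Gbx2, a homeodomain factor of the anterior hindbrain. These factors repress each other, and at their border an organiser forms that secretes Fgf8 and expresses the Pax2, Pax5, Pax8, En1 and En2 genes. Behind it the hindbrain is divided into rhombomeres, of which the third and the fifth express the zinc finger factor Egr2, also known as Krox20. Otx2 and Gbx2 have an earlier role too: Gbx2 is a target of LIF and STAT3 signalling in mouse ES cells, and Otx2 acts in the passage from the naive to the primed state.

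The 10 genes Otx1, Otx2, Gbx2, En1, En2, Pax2, Pax5, Pax8, Fgf8 and Egr2 were taken by name, and every probe that the platform annotation gives to them was used. They had 16 probes of the 55681 on the array, or 10 of the 21893 genes with a probe. Fgf8 and Pax2 had 3 probes each, Otx2 and Pax5 had 2 each, and every other gene had 1. The RNA came from mouse 46c ES cells (strain 129/Ola), a line with GFP placed at the neural gene Sox1. Undifferentiated 46c cells (ESC, 3 arrays) were set against 46c cells taken through 5 days of neural differentiation in medium with the NB27 and Neuro2 supplements and sorted by FACS for GFP (NPC, 3 arrays). The labels name biological replicates of this 1 line and give no GFP gate for the sorted cells. The title of ESC replicate 3 spells the line UD446c where the other ESC titles have UD46c, while its source label names 46c. The question was how transcript levels change from ES cell to neural progenitor, as the expression side of a study of histone H4K16 acetylation.

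Values are deposited log2 signals of single-colour Agilent arrays, on a scale from 1.03 to 16.18 with a median of 5.32 on every array. A difference of 1 is thus a factor of 2 in signal, and "rose" or "fell" is used only for an adjusted p under 0.05 in limma (two-sided, Benjamini-Hochberg over all 55681 probes). At that threshold 11.5% of all probes differed between NPC and ESC, 6.08% higher and 5.43% lower in NPC. Detection calls were not given, so the 1194 probes of olfactory receptor genes, a family little used outside the nose, served as a reference for dim signals. Their median was 2.54 and their 95th percentile was 6.61, which lay above 62.6% of all probe values on an array. The labels fit the reporter and the ES cell marker: Sox1 (whose reporter was sorted on) rose by 3.01 ± 0.40 at its brighter probe (0.91 at the other, which did not pass) and Pou5f1 fell by 7.75 ± 0.32 (SE). Of the neural progenitor markers 6 of 8 rose, and of the ES cell markers 6 of 8 fell. By their brightest probe, 9.18% of all genes rose and 7.92% fell. In bulk RNA, fewer cells that express a gene and less of its RNA per cell cannot be told apart.

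Of the 16 probes, 1 rose, 2 fell and 13 did not pass the test. The rise was that of Egr2, and the falls were those of the brighter Otx2 probe and of the Gbx2 probe. Against a background of 11.5% this made 3 of 16 probes, or 3 of 10 genes where 17.1% of all genes passed by their brightest probe. Blocking on the replicate number, the same 3 probes passed, 1 higher and 2 lower, while the background went up to 20.2% of probes (10.7% higher, 9.50% lower) and 28.5% of genes. The median change over the 16 probes was -0.05, beside -0.01 over all probes. The 13 other probes had changes from -0.75 to 0.74 and adjusted p-values from 0.427 to 0.984 (limma). With only 3 arrays per group their 95% confidence intervals reached as far as -2.15 and 2.08, so changes of several-fold were not detectable for some of them. Groups did not overlap for 3 probes, the same 3, and over the whole array 29.5% of probes had groups that did not overlap.

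**Figure D1:**
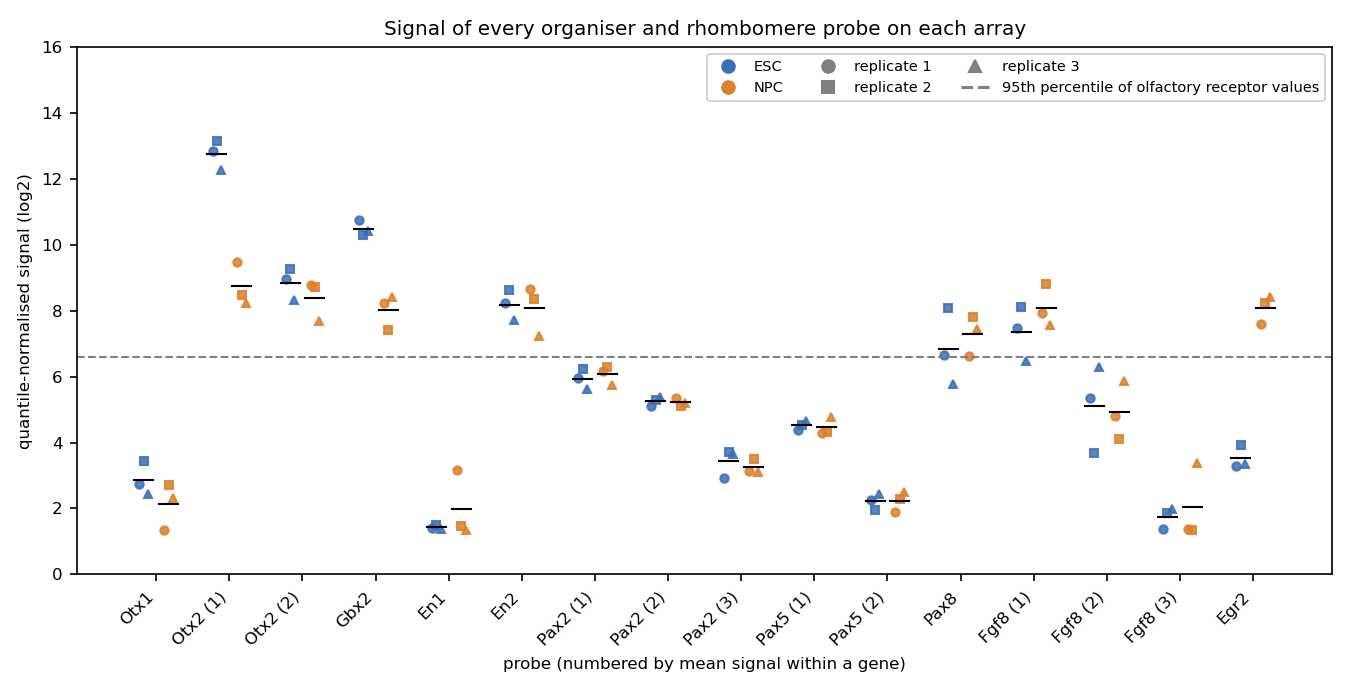
Quantile-normalised log2 signal (vertical axis) of each of the 16 probes (horizontal axis) on the 3 ESC and 3 NPC arrays. Marker shapes give the replicate number, bars the group mean, and the dashed line the 95th percentile of olfactory receptor values (6.61). Otx2 (1) and Gbx2 stand lower in NPC and Egr2 higher, while the groups overlap for the other 13 probes.

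The stretches upstream of Otx2, Gbx2 and Egr2 are printed because these are the genes whose signal changed. Each is the 250 bases before a start site, 5′ to 3′ on the gene's strand, from RefSeq on build GRCm38.p6. Capitals mark matches, on either strand, to TAATCC (the core bound by Otx factors), TAATTA (a core of many homeodomains), TTCNNNGAA (STAT factors), ATGCAAAT (the POU octamer) and the CArG box of serum response factor.
Otx2, chr14:48667645-48667894, minus strand: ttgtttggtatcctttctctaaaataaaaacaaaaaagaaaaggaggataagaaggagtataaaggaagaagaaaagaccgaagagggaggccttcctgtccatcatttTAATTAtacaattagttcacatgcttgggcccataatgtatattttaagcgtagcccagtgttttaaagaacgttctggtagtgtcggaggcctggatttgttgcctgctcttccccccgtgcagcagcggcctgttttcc
Gbx2, chr1:89931177-89931426, minus strand: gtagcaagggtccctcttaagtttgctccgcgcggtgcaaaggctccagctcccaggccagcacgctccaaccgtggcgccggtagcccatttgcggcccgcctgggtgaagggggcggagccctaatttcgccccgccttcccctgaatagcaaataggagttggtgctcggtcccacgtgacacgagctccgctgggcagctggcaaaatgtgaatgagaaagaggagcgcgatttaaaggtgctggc
Egr2, chr10:67537619-67537868, plus strand: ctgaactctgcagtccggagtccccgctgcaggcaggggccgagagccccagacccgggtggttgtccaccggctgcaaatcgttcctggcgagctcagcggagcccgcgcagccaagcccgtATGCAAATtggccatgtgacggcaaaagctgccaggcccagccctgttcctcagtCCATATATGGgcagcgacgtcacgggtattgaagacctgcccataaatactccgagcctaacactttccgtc
The Otx2 stretch held 1 TAATTA, 141 bases before the start, a motif found in 4.84% of the 32851 windows of this length. The Gbx2 stretch held none of the 5 motifs. The Egr2 stretch held an octamer 127 bases before the start, found in 1.60% of all windows, and a CArG box 72 bases before the start, found in 1.47%. TAATCC was in 6.25% and TTCNNNGAA in 7.02% of all windows. Otx2 has 4 start windows in the table and Egr2 has 5, and the one overlapping most of the others was printed. Another Otx2 window held 1 TAATCC, 3 TAATTA and 1 TTCNNNGAA, and the remaining 2 held none of the motifs. Another Egr2 window held none of the motifs, and a further Egr2 window held the CArG box but no octamer. The remaining Egr2 windows held both. The CArG box was added to the search after the Egr2 stretch had been read. The Gbx2 and Egr2 stretches had a GC content of 61.6% each and 18 and 17 CpG sites, while Otx2 had 42.0% and 6, beside medians of 52.4% and 6 over all windows. These matches are letters in a window and were not tested for binding.

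Otx2, the anterior factor, gave different results by probe. Its brighter probe (A_55_P1978571) read 12.84, 13.15 and 12.27 in ESC and 9.49, 8.49 and 8.24 in NPC. All 3 NPC arrays lay below all 3 ESC arrays, with a gap of more than 2 log2 units. The signal fell by 4.01 ± 0.42 (SE; limma adjusted p = 0.00349), a 16.1-fold lower signal in NPC with a 95% confidence interval of 7.82- to 33.3-fold. Its mean moved from the 95.2nd to the 77.5th percentile of probe values, so it stayed above the olfactory receptor reference in NPC on every array.

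The other Otx2 probe (A_55_P2049052) read 8.95, 9.26 and 8.32 in ESC and 8.79, 8.71 and 7.69 in NPC. Here the groups overlapped, and the difference of -0.45 ± 0.41 did not pass (limma adjusted p = 0.628). The annotation gives a transcript accession for the brighter probe and none for this one, and where either lies on the transcript is not analysed here. With the mean of both probes the change of Otx2 was -2.23 (limma adjusted p = 0.0112).

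Otx1, the paralog of Otx2 with a later role in the forebrain and midbrain, was dim on every array. Its probe read 2.75, 3.44 and 2.44 in ESC and 1.36, 2.72 and 2.31 in NPC, all below the olfactory receptor reference of 6.61. The groups overlapped and the difference of -0.75 ± 0.45 did not pass (limma adjusted p = 0.427).

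Gbx2, the hindbrain partner of Otx2, read 10.76, 10.30 and 10.42 in ESC and 8.22, 7.40 and 8.43 in NPC. Every NPC array was lower than every ESC array. The signal fell by 2.47 ± 0.33 (limma adjusted p = 0.00772), a 5.56-fold lower signal with a 95% confidence interval of 3.16- to 9.79-fold. Like Otx2 it kept a signal above the olfactory receptor reference in NPC, at the 73.1st percentile of probe values.

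Otx2, by its brighter probe, and Gbx2 thus both had lower signals in NPC. Within each array, the signal of that Otx2 probe minus the Gbx2 signal was 2.08, 2.85 and 1.85 in ESC and 1.28, 1.09 and -0.19 in NPC. The fall of the brighter Otx2 probe was larger by 1.54 ± 0.55 (SE), and the groups did not overlap. The order depends on the probe. The other Otx2 probe differed by -0.45 and the mean of both by -2.23, beside -2.47 for Gbx2. Levels of different probes cannot be ranked, so this compares changes only. For the brighter Otx2 probe the exact permutation test gave p = 0.1 (two-sided), the smallest that 3 against 3 arrays allow. Adjusted over the 6 pairs of related genes compared, the p of this permutation test was 0.3. No such difference is given against Otx1, whose probe lay under the olfactory receptor reference on every array.

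Genes of the LIF pathway and the primed epiblast, the setting in which ES cells use Gbx2 and Otx2, fell in larger number than the background. Of 15 measured, 12 fell and 1 rose, where 7.92% of all genes fell and 9.18% rose by their brightest probe. The median change was -3.38. The list was chosen with earlier results of these data known, and it shares Esrrb with the ES cell markers. Fgf4, an FGF ligand of pluripotent cells, fell by 8.34 ± 0.22, and Foxd3, a factor of pluripotent cells and neural crest, fell by 7.59 ± 0.55. Both were under 6.61 in NPC, and with that floor the differences were -6.19 and -3.01. Sox3, which is shared by epiblast and neural progenitors, rose by 4.73 ± 0.49. Socs3, a direct target of STAT3 named here after its values were seen, fell by 2.33 ± 0.40 (limma adjusted p = 0.0184). The mean level of the 8 ES cell markers was 13.11 to 13.18 in ESC and 7.60 to 8.11 in NPC, and its part in the falls of Otx2 and Gbx2 was not tested.

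Fgf8, the secreted signal of the organiser, did not pass by any of its 3 probes. The brightest probe (A_55_P2101508) read 7.48, 8.11 and 6.48 in ESC and 7.92, 8.80 and 7.56 in NPC. The groups overlapped, and the difference was 0.74 ± 0.53 (limma adjusted p = 0.521). Within the same replicate number NPC exceeded ESC by 0.45, 0.69 and 1.07, and a fit blocked on that number gave an interval of 0.21 to 1.26 and an adjusted p of 0.0731 (limma), still short of the threshold. The other probes were dim, with readings from 3.69 to 6.30 and from 1.34 to 3.39 on the 6 arrays, and differed by -0.18 ± 0.79 and 0.30 ± 0.61.

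En2, a homeodomain factor that the organiser maintains in the midbrain and anterior hindbrain, read 8.22, 8.62 and 7.72 in ESC and 8.66, 8.36 and 7.23 in NPC. These values lay above the olfactory receptor reference in both groups and overlapped, with a difference of -0.10 ± 0.46 (limma adjusted p = 0.941). The 95% confidence interval ran from -1.24 to 1.03. En1, its paralog with an earlier onset, was dim: 1.42, 1.49 and 1.38 in ESC and 3.17, 1.46 and 1.36 in NPC. NPC replicate 1 alone stood apart, and without it the difference of 0.57 ± 0.52 became -0.02.

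The paired-domain factors Pax2, Pax5 and Pax8 are switched on in that order at the boundary. Pax2, the earliest, read 5.96, 6.24 and 5.61 in ESC and 6.18, 6.28 and 5.75 in NPC by its brightest probe. The groups overlapped at all 3 Pax2 probes, with differences of 0.14 ± 0.26, -0.04 ± 0.18 and -0.18 ± 0.28. All 3 probes lay under the olfactory receptor reference on every array, so the narrow intervals say little about the Pax2 transcript. Both Pax5 probes were dim as well, from 4.30 to 4.79 and from 1.90 to 2.50 on the 6 arrays, and differed by -0.06 ± 0.22 and 0.02 ± 0.25.

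Pax8 read 6.65, 8.08 and 5.77 in ESC and 6.62, 7.80 and 7.43 in NPC. Its ESC values had an SD of 1.16, and the difference of 0.45 ± 0.66 did not pass (limma adjusted p = 0.784). The other pairs compared, among Pax2, Pax5 and Pax8 and between En1 and En2, each held a probe under the olfactory receptor reference on every array and are not read as differences between genes. Markers of other tissues that use these genes were read against 9.18% of all genes higher and 7.92% lower. Of 9 markers of intermediate mesoderm, kidney and ear 0 rose and 2 fell, and 1 rose with the replicate block. The other probe of Lhx1, a marker of that list named after its values were seen, rose by 6.25 (limma adjusted p = 0.000187). Of 6 B cell markers 0 rose and 2 fell, and of 4 thyroid markers 1 rose and 0 fell. The ESC and NPC means of 5 of the 6 B cell and 4 of the 4 thyroid markers were under 6.61, including each that passed. The part of these tissues in the Pax values was not tested.

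**Figure D2:**
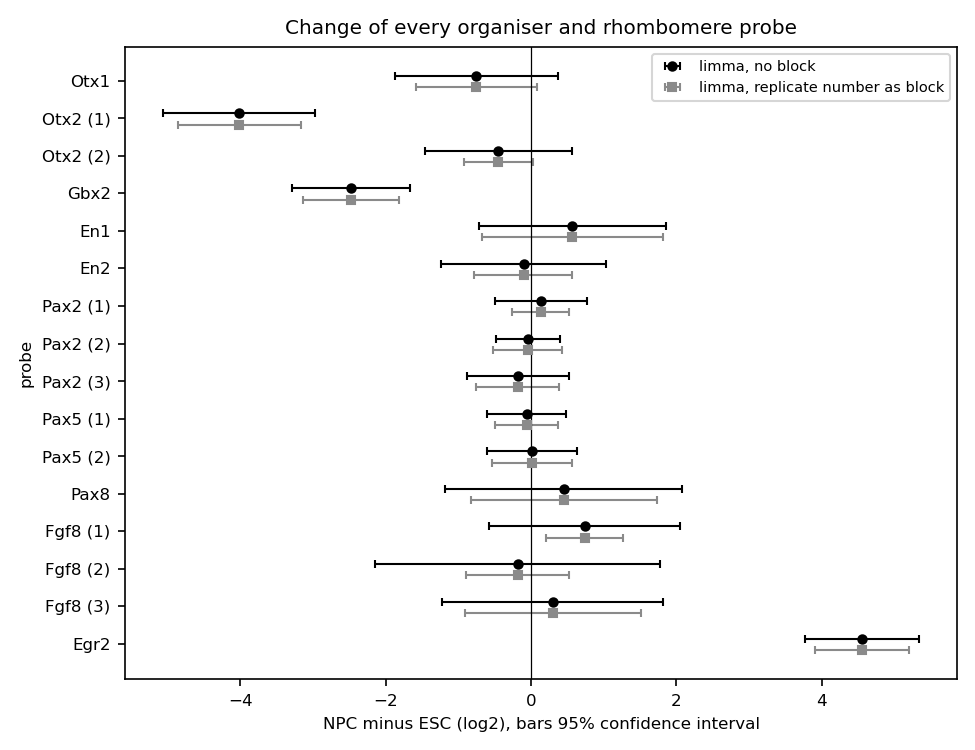
NPC minus ESC difference in log2 signal (horizontal axis) of the 16 probes (vertical axis), as the limma estimate with its 95% confidence interval, without (black circles) and with (grey squares) the replicate number as a block. The intervals of Otx2 (1), Gbx2 and Egr2 clear 0 under both fits. That of Fgf8 (1) clears 0 with the block before adjustment (0.21 to 1.26).

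Egr2, the factor of rhombomeres 3 and 5 and later of myelinating Schwann cells, was the 1 gene of the group whose rise in NPC passed the test. It read 3.30, 3.94 and 3.35 in ESC and 7.59, 8.23 and 8.42 in NPC. All ESC arrays lay under the olfactory receptor reference of 6.61 and all NPC arrays above it. The signal rose by 4.55 ± 0.31 (limma adjusted p = 0.000977), a 23.5-fold higher signal with a 95% confidence interval of 13.7- to 40.4-fold. The size of this fold rests on dim ESC values: with values under 6 set to 6 the rise was 2.08 (limma adjusted p = 0.00453), and with values under 6.61 set to that level it was 1.47 (limma adjusted p = 0.0143). Within the same replicate number the difference was 4.30, 4.29 and 5.08.

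Some other segmental genes of the hindbrain also rose. Of 23 measured, 11 rose, 0 fell and 12 did not pass. Over all genes 9.18% rose and 7.92% fell, and the median change of the list was 2.65. The list was chosen with earlier results of these data known. No measured gene of this list passed as a fall with the replicate number as a block either, and 13 then rose. Hoxb2, a Hox gene that Egr2 activates in rhombomeres 3 and 5, read 3.28, 3.68 and 3.43 in ESC and 13.45, 13.47 and 13.45 in NPC, a rise of 9.99 ± 0.18. Hoxb3, expressed in the posterior rhombomeres, rose by 8.90 ± 0.29, although its other probe differed by 3.85 without passing (limma adjusted p = 0.0639). The ESC values of both genes lay under 6.61, and with that floor the rises were 6.85 for Hoxb2 and 3.42 for Hoxb3.

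Genes that Egr2 is known to act on or with, and other hindbrain genes, were picked out after their values were seen. They differed among themselves. Hoxa2, another target of Egr2 in the hindbrain, rose by 8.88 ± 0.30. Epha4, an Eph receptor that Egr2 activates in the third rhombomere, read 7.69 ± 1.07 in ESC and 9.36 ± 1.23 in NPC (SD, n = 3 per group), and did not pass without the block (limma adjusted p = 0.316, and 0.0445 with the replicate block). Nab1 and Nab2, corepressors that bind Egr factors, differed by 0.39 ± 0.64 and 1.47 ± 0.92 and did not pass. Hoxb1, the Hox gene of the fourth rhombomere, rose by 5.32 ± 0.50. Of the other hindbrain genes, Cyp26b1, a retinoic acid degrading enzyme, rose by 8.78 ± 0.28. Its relatives Cyp26a1 and Cyp26c1 differed by 0.43 ± 0.37 and -0.14 ± 0.49 without passing. The sizes of the rises of Hoxa2, Hoxb1 and Cyp26b1 rest on ESC means of 2.56, 1.92 and 4.19, all under 6.61.

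Egr2 is also an immediate early gene, induced by growth factors and by cell handling, and that list went both ways. Of 15 measured genes 2 rose and 2 fell, against 9.18% and 7.92% of all genes. With the replicate number as a block 4 rose and 3 fell, against 15.6% and 12.9%. Btg2, an antiproliferative gene, rose by 2.06 ± 0.19 and Fosb, an AP-1 subunit, rose by 2.18 ± 0.47. Fosb lost its call in 5 of 6 fits that left out an array (limma adjusted p up to 0.141, with NPC replicate 1 omitted). Ier3, a stress-responsive gene, fell by 2.84 ± 0.53 and likewise lost its call in 5 of 6 such fits (limma adjusted p up to 0.0997, with ESC replicate 1 omitted). Nr4a1, an orphan nuclear receptor, fell by 1.97 ± 0.28 and lost its call in 2 of 6 (limma adjusted p up to 0.0602, with ESC replicate 1 omitted). Fos and Jun, AP-1 subunits named after their values were seen, differed by 2.99 ± 0.96 and 1.94 ± 0.57 and passed with the replicate block (limma adjusted p = 0.0467 and 0.00740) but not without it (0.130 and 0.103). The closest relatives of Egr2, named after their values were seen, did not pass: Egr1 differed by 0.89 ± 0.50, Egr3 by -0.37 ± 0.33 and Egr4 by -0.04 ± 0.70. The mean level of the list was 7.68 to 8.60 in ESC and 7.25 to 8.94 in NPC, and its part in the rise of Egr2 was not tested.

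Markers of neural crest and Schwann precursors, the other neural setting of Egr2, gave 1 rise and 1 fall among 7 measured. Over all genes 9.18% rose and 7.92% fell. Tfap2b, a factor of premigratory crest, rose by 6.35 ± 0.30, from a mean of 1.10 in ESC to 7.45 in NPC. Foxd3, which is also in the LIF and primed epiblast list, fell by 7.59 ± 0.55, from 9.62 to 2.03. Both were named after their values were seen. Sox10, the defining factor of migrating crest, read 7.35 in ESC and 7.27 in NPC. The mean level of the 7 markers was 6.23 to 6.44 in ESC and 6.10 to 6.28 in NPC. Because the rise of Tfap2b and the fall of Foxd3 offset each other in it, this mean does not show an unchanged list.

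Signalling genes of the organiser and the feedback genes that FGF8 induces were measured alongside Fgf8. Of 20 measured, 3 rose and 7 fell, against 9.18% and 7.92% of all genes, and the median change was -1.05. Without ESC replicate 1 only 3 fell. With the replicate number as a block 4 rose and 10 fell, against 15.6% and 12.9% of all genes. Sp8, a zinc finger factor that sustains Fgf8 at the organiser, rose by 5.79 ± 0.38, but its other probe differed by 0.62 and did not pass (limma adjusted p = 0.161). Fgfr3, an FGF receptor of the ventricular zone, rose by 4.77 ± 0.76. It lost its call in 3 of 6 fits that left out an array (limma adjusted p up to 0.0725, with NPC replicate 1 omitted). Its other probes differed by -0.39 and 1.45 without passing.

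The falls were led by inhibitors and targets of FGF and WNT signalling. Spry4, a feedback inhibitor of FGF receptors, read 10.08, 10.75 and 9.28 in ESC and 5.81, 5.03 and 3.06 in NPC and fell by 5.41 ± 0.79, a call that ended without ESC replicate 1 (limma adjusted p = 0.0578). Sp5, a WNT-responsive factor, fell by 4.27 ± 0.46. Both were under 6.61 in NPC, and with that floor the differences were -3.43 for Spry4 and -2.30 for Sp5. Wnt1, Lmx1b, Fgf17 and Fgf18, named after their values were seen, did not pass at their brightest probes without the block. Wnt1, the WNT ligand of the boundary, read 9.32 ± 0.07 in ESC and 9.47 ± 0.29 in NPC (SD, n = 3 per group). Lmx1b, which maintains it, read 6.95 ± 0.07 and 6.82 ± 0.09. Fgf17, a relative of Fgf8 at the boundary, read 10.29 ± 0.82 and 10.85 ± 1.39. Fgf18 differed by -0.86 ± 0.21 (limma adjusted p = 0.0631, and 0.0312 with the replicate block). Its other probe differed by -0.96 and passed (limma adjusted p = 0.034).

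Of 20 genes of the midbrain itself 11 rose and 0 fell, against 9.18% and 7.92% of all genes, with a median of 2.50. This list was chosen with earlier results of these data known, so its share is not independent of them. With the replicate block 13 rose and 1 fell, and without any block 9 did not pass. Irx3, an Iroquois factor with a border in the diencephalon, midbrain and hindbrain, rose by 9.78 ± 0.54. Pax3, a dorsal factor of midbrain and cord, rose by 6.28 ± 0.41, and by 7.47 at its other probe. Both genes were under 6.61 in ESC, and with that floor the rises were 6.37 for Irx3 and 4.77 for Pax3. Most of these genes are used along much of the neural tube. Dmbx1, a midbrain homeodomain factor named after its values were seen, differed by 0.75 ± 0.22 and did not pass (limma adjusted p = 0.104).

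Levels further forward and back along the axis were mostly dim in both groups. Of 14 forebrain genes 2 rose and 1 fell, against 9.18% and 7.92% of all genes. Mean signals of 13 of the 14 lay under the olfactory receptor reference in ESC and in NPC. Lhx2, a factor of forebrain and eye, rose by 2.79 ± 0.18 to 8.26 ± 0.11 (SD, n = 3), and by 1.65 with the floor of 6.61. Fezf2, a forebrain zinc finger gene, rose by 1.98 ± 0.26 and stayed under the reference, and Hesx1, a factor of the anterior neural plate, fell by 1.47 ± 0.26. Hesx1 lost its call in 5 of 6 fits that left out an array (limma adjusted p up to 0.0912, with NPC replicate 1 omitted). A floor of 6 left a difference of -0.08 (limma adjusted p = 0.781). Of 17 Hox and Cdx genes of the spinal cord level, 2 rose and 2 fell, against the same background. Hoxb8 rose by 8.11 ± 0.39 and Hoxb7 by 3.36 ± 0.27, while the posterior factors Cdx2 and Cdx1 fell by 3.99 ± 0.18 and 2.77 ± 0.25. With the olfactory receptor floor of 6.61 the rise of Hoxb8 was 2.92 and the fall of Cdx1 was -1.20, and Hoxb7, at 0.54, lost its call (limma adjusted p = 0.267). Cdx2 lay under 6.61 on every array. Whether these lists differ in the share that rose was not tested.

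**Figure D3:**
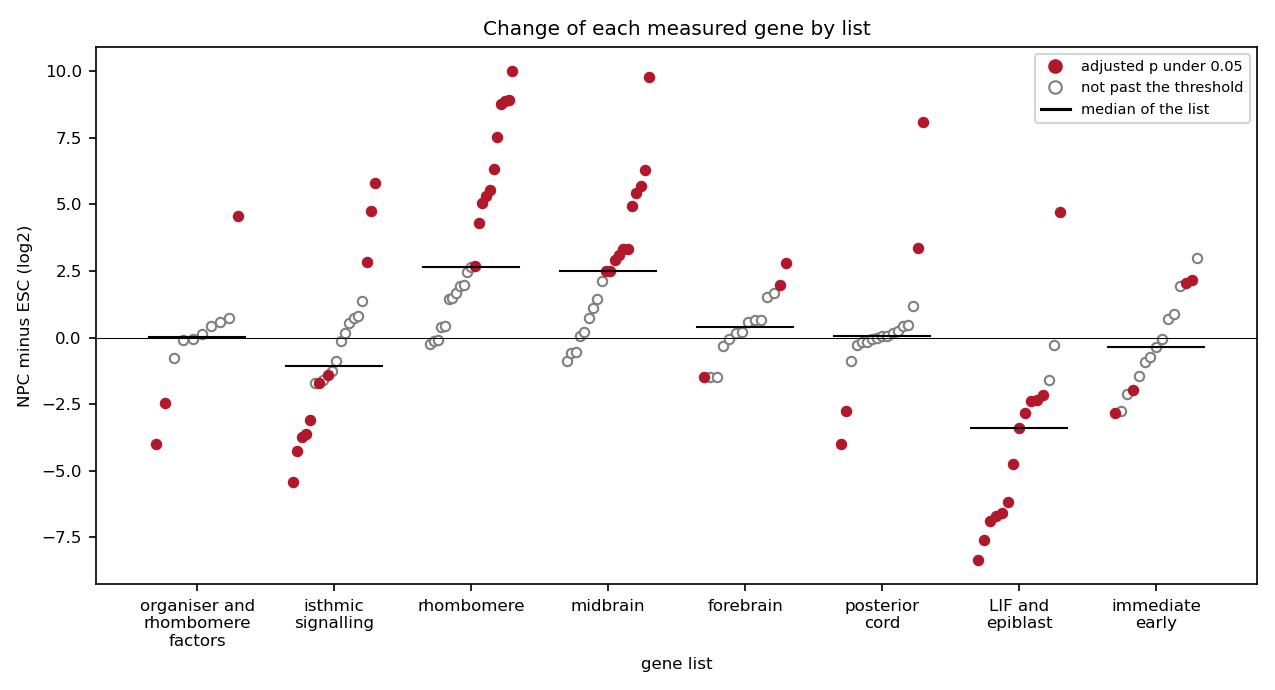
NPC minus ESC difference in log2 signal (vertical axis) of each measured gene, by its probe of highest mean, in the 10 organiser and rhombomere factors and in 7 further lists (horizontal axis). Filled red points passed limma at an adjusted p under 0.05, open points did not, and bars are list medians, which run from -3.38 for the LIF and epiblast genes to 2.65 for the rhombomere genes.

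Replicates of the same number tended to move together. For 10 of the 16 probes the same replicate number was lowest in both groups, as for 61.6% of all probes. En1, En2, both Otx2 probes and the brightest Pax2 and Fgf8 probes were lowest in replicate 3 of each group. The calls of the brighter Otx2 probe, Gbx2 and Egr2 held in each of the 6 fits that left out 1 array. Their highest adjusted p-values were 0.0263, 0.0459 and 0.0105 (limma).

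The genes whose values over the 6 arrays, centred on their mean, lay closest to each changed gene were found by Euclidean distance on the log2 scale. Nearest to Otx2 were Gm9918 (distance 0.365) and Ldlrad4 (0.427), and nearest to Gbx2 were Cnn2 (0.293) and Slfn10-ps (0.349). Nearest to Egr2 were Isl1 (0.615), a LIM homeodomain factor of motor neurons, and Onecut1 (0.650), a cut homeodomain factor. Isl1 read 3.59, 3.75 and 3.83 in ESC and 7.62, 8.76 and 8.75 in NPC. Gm9918, Ldlrad4 and Slfn10-ps lay under 6.61 on every array. With 2 groups of 3 arrays these distances mainly reflect a like difference between groups.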

How the data were processed

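The authors' deposited table holds log2 signals of 55681 probes on 6 single-colour (Cy3) Agilent arrays. Per the labels' protocols, total RNA was amplified in a single round before dye coupling, and the submitters' processing notes list limma. No source used here gives the logarithm's base, the background correction or any filter, and base 2 was taken from the range. The sorted columns were identical (largest difference 0), so the values had been quantile normalised, and a shift of most transcripts in 1 direction would not be visible. The number of arrays limits the precision.

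Probes were named through the platform annotation: 30626 carried 1 symbol, 0 carried more than 1, and 25055 have no name here. The difference of NPC from ESC was fitted to all probes with limma 3.58.1 (R 4.3.3), without covariate or filter. Gene lists were read by the probe of highest mean over the 6 arrays. They cover isthmic signalling, rhombomere, midbrain, forebrain, posterior cord, LIF and primed epiblast, and immediate early genes, plus cell type markers. Listed genes that did not match were not analysed here. The members and lists were chosen with earlier results of these data known. Named genes are all members, Sox1, Pou5f1, the 2 largest called rises and falls of each list, and the nearest profiles; others are marked as named after their values were seen.

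Replicate numbers were checked for pairing. Across probes, an array's deviation from its group mean correlated with that of its same-numbered partner at r = 0.269, 0.725 and 0.784, all over 0.1, so the numbers in the titles were taken to pair the arrays, and a fit blocked on the number was run as the alternative. ESC replicate 2 and NPC replicate 1 correlated with r = 0.433. The script was tested on simulated data. Slides and scan batches: not analysed here.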

Additional observations from a re-analysis of the deposited data

How the results depend on the processing

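The falls of the brighter Otx2 probe and of Gbx2 and the rise of Egr2 kept direction and call under every alternative that tested them. None of the 13 other probes, the other Otx2 probe among them, passed under any alternative. Only with probes of a mean of 6 or higher did the count of rises among the 16 probes go to 0, since Egr2 was then not tested. With the replicate block 5969 probes of the array were higher and 5287 lower, in place of 3383 and 3024, and the block changed no call of the 16 probes. With arrays centred on housekeeping genes (12 of 14 on the array) the median of all probes moved to -0.15, and 1637 probes were higher and 2191 lower. With the olfactory receptor floor and with the mean filter 1953 and 1837 probes were lower; probes at a floor on every array were left out. Leaving out an array gave 1665 (without ESC replicate 1) to 3629 higher and 1528 (without ESC replicate 1) to 2795 lower; without NPC replicate 1 there were 1893 and 1809, and without NPC replicate 2 there were 2045 and 1892. The forebrain list had 1 rise with either floor and with the mean filter, 4 with the mean of all probes, and 0 falls with the floors, the filter and the housekeeping scaling (0 to 1 leaving out an array). The posterior list had 1 rise with the olfactory receptor floor and 0 with the filter, and 1 fall with each of these and with the floor of 6. The immediate early list had 4 rises with the replicate block, 1 rise and 1 fall with housekeeping scaling, and 1 to 3 rises and 0 to 3 falls leaving out an array. The isthmic list had 3 to 8 falls leaving out an array, and the midbrain list 1 fall with the block. The cause of these shifts was not tested.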

Other observations

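Markers of cell types outside the neural lineage moved both ways, where 9.18% of all genes were higher and 7.92% lower. Of 7 endoderm markers 2 rose and 0 fell, and of 6 mesoderm markers 1 rose and 1 fell. Of 7 fibroblast markers 1 rose and 1 fell. With the replicate block 2 endoderm markers rose and 1 fell, 1 mesoderm marker rose and 2 fell, and 3 fibroblast markers rose and 1 fell. The background was then 15.6% of genes higher and 12.9% lower. Foxa2, a factor of endoderm and of the floor plate, rose by 5.69 ± 0.35 and by 6.97 at its other probe, and Cxcr4, a chemokine receptor of endoderm and other cells, rose by 6.31 ± 0.45, both from ESC levels under 6.61. Afp, a marker of visceral endoderm, read 2.27 in ESC and 2.01 in NPC. Col1a2, a fibrillar collagen of fibroblasts, rose from 6.43 in ESC to 8.19 in NPC, and Thy1, a surface protein of fibroblasts and neurons, fell by 3.06 ± 0.53. These genes were named after their values were seen, and their part in the changes of the organiser and rhombomere genes was not tested.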
